A study of Homo sapiens with 6 samples.

Results

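The genes described here are the human ADAM, ADAMTS and ADAMTSL genes, a family of metalloproteases and of related proteins. They are all the protein-coding genes whose symbol is ADAM, ADAMTS or ADAMTSL followed by digits, and 44 of the 57773 genes in the count table met that rule. The 44 genes are 20 ADAM, 19 ADAMTS and 5 ADAMTSL genes. RNA came from U251, an established human glioblastoma line. The PD-L1 group is a stable U251 line made with a lentivirus that carries PD-L1, the CD274 product, through which cells restrain T cells by engaging PD-1. The Vector group is a stable U251 line made with the lentiviral vector control. Each group has 3 separately cultured dishes of 1 such line, all in medium with 10% serum and taken 12 h after passage. The p-values therefore measure the spread between dishes, and the PD-L1 construct cannot be told apart from other differences between the lines. The comparison addresses which transcripts differ in cells that overexpress PD-L1.

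ADAM proteins sit in the cell membrane, and the active ones cut the outer part off growth factors, adhesion molecules and receptors, a step called shedding. PD-L1 itself is known as a substrate of ADAM10 and ADAM17. ADAMTS enzymes are secreted, bind the matrix through thrombospondin repeats, and cut proteoglycans, procollagens and other matrix proteins. ADAMTSL proteins have the repeats but no protease domain. In glioma both families have been studied for their part in growth factor release and in cutting the brain matrix during invasion.

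The protease domain of active members holds a zinc site, in which histidines bind the metal and a glutamate takes part in cutting. The site was searched for in the coding sequences, as a histidine and a glutamate followed at fixed spacing by the other histidines. It was found in 12 of 20 ADAM genes, 19 of 19 ADAMTS genes and 0 of 5 ADAMTSL genes, against 88 of 19684 protein-coding genes (0.447%). ADAM2, ADAM7, ADAM11, ADAM18, ADAM22, ADAM23, ADAM29 and ADAM32 lack it. The 33 coding bases of the site are shown for 3 ADAM and 3 ADAMTS genes that were lower in PD-L1 dishes, and for ADAMTS7 and ADAMTS1, the relatives that are compared with ADAMTS12 and ADAMTS15. They come from GENCODE 29 transcripts, and capitals mark the codons of the histidines and the glutamate.
ADAM12: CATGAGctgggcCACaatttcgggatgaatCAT
ADAM19: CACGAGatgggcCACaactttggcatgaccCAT
ADAM10: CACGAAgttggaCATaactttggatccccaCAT
ADAMTS12: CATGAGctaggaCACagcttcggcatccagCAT
ADAMTS7: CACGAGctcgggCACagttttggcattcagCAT
ADAMTS15: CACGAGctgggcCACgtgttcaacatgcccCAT
ADAMTS1: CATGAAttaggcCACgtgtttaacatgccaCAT
ADAMTS16: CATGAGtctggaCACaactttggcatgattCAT

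Total counts lay between 15678989 and 22270509 per dish, so 3 counts correspond to 0.138 to 0.185 CPM (counts scaled to library size by TMM), for counting error only. CD274 averaged 1300 ± 61.4 CPM in PD-L1 dishes and 2.41 ± 0.97 CPM in Vector dishes (SD, n = 3 each), which matches the labels. PD-L1 dish 3 stood apart from the other PD-L1 dishes, with a chi-square per degree of freedom of 14.5 and 13.6 against dishes 1 and 2, while dishes 1 and 2 gave 2.84. Vector dishes also differed, at 9.15 for dishes 1 and 2, 5.78 for dishes 1 and 3 and 4.87 for dishes 2 and 3. Of 15818 genes tested with edgeR's quasi-likelihood test, 1384 (8.75%) passed a Benjamini-Hochberg adjusted p under 0.05, 1139 lower (7.2%) and 245 higher (1.55%) in PD-L1 dishes. Leaving out PD-L1 dish 1, 2 or 3 gave 641, 745 or 3512 changed genes, and leaving out Vector dish 1 gave 545. Of the glioma line markers 7 of 9 tested were lower in PD-L1 dishes, among them VIM at 241 ± 35.0 CPM in PD-L1 dishes and 391 ± 20.4 CPM in Vector dishes. Their summed level was 1010 to 1150 CPM in PD-L1 dishes and 1410 to 1570 CPM in Vector dishes. The markers of T cells and leukocytes summed to 1.61 to 2.54 CPM in PD-L1 dishes and 2.88 to 3.45 CPM in Vector dishes, with CD2 at 0 reads. Those of macrophages summed to 1.23 to 1.81 CPM in PD-L1 dishes and 3.03 to 3.59 CPM in Vector dishes, and those of endothelial cells to 3.20 to 3.96 CPM in PD-L1 dishes and 4.94 to 5.98 CPM in Vector dishes. In these lists CD4, AIF1, TEK and KDR were 6.08-fold, 7.57-fold, 7.89-fold and 2.2-fold lower in PD-L1 dishes, and 0 markers were higher. All were scarce, with TEK highest at 2.03 CPM in Vector dishes, and by DESeq2 CD4 and AIF1 did not pass. Neuron markers summed to 16.5 to 19.5 CPM in PD-L1 dishes and 17.6 to 18.4 CPM in Vector dishes, and oligodendrocyte markers to 122 to 134 CPM in PD-L1 dishes and 133 to 138 CPM in Vector dishes. Epithelial markers summed to 7.76 to 31.7 CPM in PD-L1 dishes and 16.1 to 43.0 CPM in Vector dishes. What part these shifts have in the results was not tested. In RNA from whole dishes, fewer expressing cells and less RNA per cell cannot be told apart.

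Of the 44 genes, 33 had enough reads to be tested. Of these 33, 8 were lower in PD-L1 dishes, 24.2% where 7.2% of all tested genes were. They were ADAM9, ADAM10, ADAM12, ADAM19, ADAMTS12, ADAMTS15, ADAMTS16 and ADAMTSL1. By the same test 0 members were higher, 0 also by DESeq2 and by limma-voom. At an unadjusted edgeR p under 0.05, 9 members were lower and 4 higher. The share of all tested genes at that threshold is not given here, so these counts have no background beside them. In 8 of the 33 every PD-L1 dish lay below every Vector dish, and 15.5% of all tested genes did so. In 4 of the 33 (ADAMTS1, ADAMTS13, ADAMTS17 and ADAMTSL4) every PD-L1 dish lay above every Vector dish. That share is near the 12.1% of all tested genes that did so. The count of lower members was 5 when PD-L1 dish 1 was left out, and also 5 on leaving out Vector dish 1 or Vector dish 3. On leaving out PD-L1 dish 3, 10 members were lower and 1 was higher. An offset for GC content and gene length gave 7 lower and 3 higher members.

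Each subfamily held lower genes, which made up 4 of the 11 tested ADAM genes, 3 of the 18 tested ADAMTS genes and 1 of the 4 tested ADAMTSL genes. Of all tested genes 7.2% were lower. The median log2 fold change, PD-L1 minus Vector, was -0.26 over ADAM, -0.08 over ADAMTS and -0.09 over ADAMTSL genes, and 0.02 over all tested genes. With the GC and length offset the ADAM median was -0.16, and the other medians turned to 0.05 over ADAMTS genes, of which 2 were then lower and 3 higher, and to 0.01 over ADAMTSL genes. On leaving out Vector dish 3 the ADAMTSL median also turned, to 0.08, and the ADAM median was -0.155. On leaving out Vector dish 1 the ADAMTSL median was -0.23. On leaving out PD-L1 dish 1 or 3 the ADAMTS median was -0.01 or -0.19. The ADAM genes had per-dish medians of -0.11, -0.13 and -0.34 in PD-L1 dishes 1 to 3 and of 0.04, -0.03 and 0.01 in Vector dishes 1 to 3, on the log2 CPM scale relative to the Vector mean. All PD-L1 dishes were below all Vector dishes there, with PD-L1 dish 3 lowest. For ADAMTS genes the medians were -0.12, -0.03 and 0.04 in PD-L1 dishes and 0.10, -0.09 and -0.01 in Vector dishes, so the groups overlapped. No test of a difference between subfamilies was made. The count of ADAMTS genes was 1 on leaving out PD-L1 dish 1, and also 1 on leaving out dish 1 or dish 3 of the Vector group. On leaving out PD-L1 dish 3 it was 4 lower and 1 higher. Of members with the zinc site 7 of 26 tested were lower, and of those without it 1 of 7, which was ADAMTSL1. Over the 33 tested members, Spearman's rho of the log2 fold change was -0.02 with GC content and -0.15 with exon length. These members share all 6 libraries, so both values are descriptions.

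**Figure D1:**
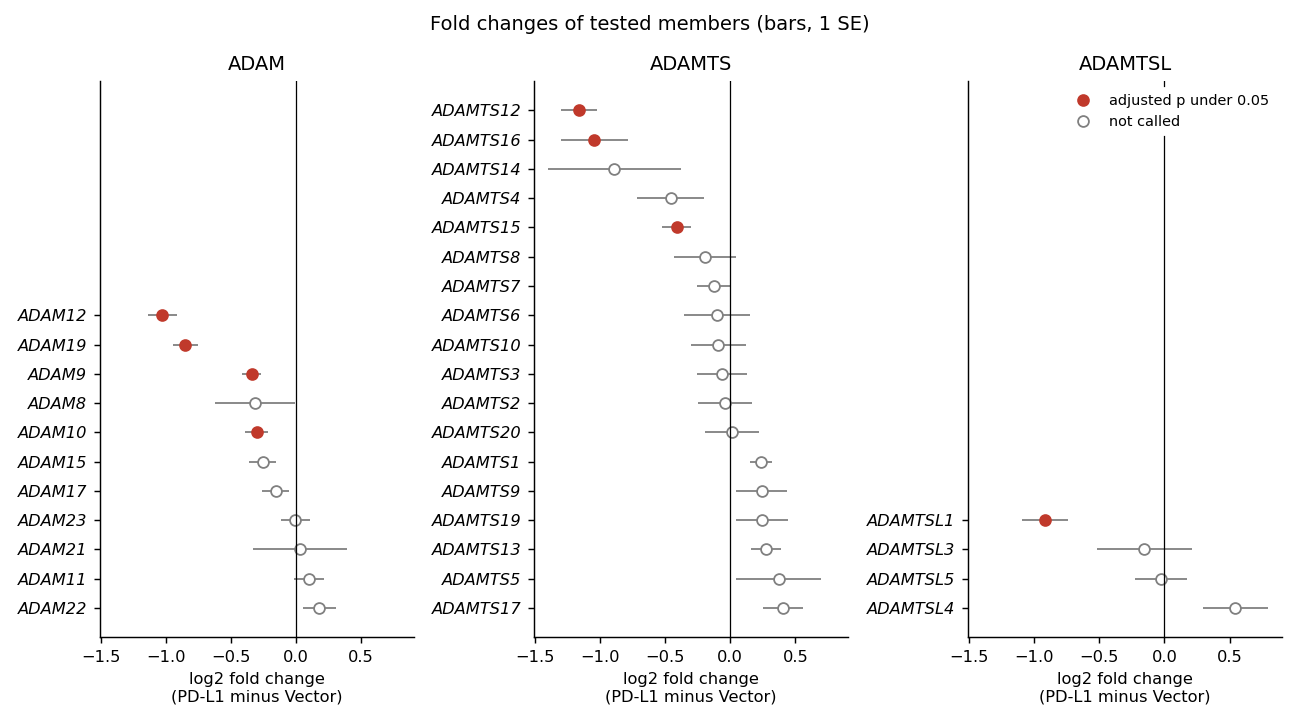
Log2 fold change (PD-L1 minus Vector, x axis) of each tested ADAM, ADAMTS and ADAMTSL gene, with bars of 1 standard error and filled points where the adjusted p was under 0.05. The 8 filled points all lie left of 0, from -1.16 for ADAMTS12 to -0.30 for ADAM10.

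Levels were set between genes in TPM, the count divided by exon length and scaled to the same total in each dish. Exon length is that of all annotated exons of a gene together, whichever transcripts are present. Orders and TPM shares between genes therefore depend on that length. The highest were ADAMTS1, at 137 ± 15.2 TPM in PD-L1 dishes and 112 ± 12.7 TPM in Vector dishes, and ADAM9, at 96.2 ± 10.4 TPM in PD-L1 dishes and 116 ± 2.20 TPM in Vector dishes. These top genes were separate in PD-L1 dishes and overlapped in Vector dishes. ADAM15 came next, at 64.8 ± 7.98 TPM in PD-L1 dishes and 74.6 ± 2.14 TPM in Vector dishes, separate from ADAM9 above and ADAM19 below in both groups. ADAM19 had 21.3 ± 0.185 TPM in PD-L1 dishes and 36.9 ± 4.97 TPM in Vector dishes, and ADAM12 had 18.5 ± 0.40 TPM in PD-L1 dishes and 36.2 ± 6.28 TPM in Vector dishes. ADAM10 had 20.8 ± 3.69 TPM in PD-L1 dishes, where it overlapped ADAM12, and 24.5 ± 0.77 TPM in Vector dishes, where it lay below both ADAM12 and ADAM19. The other tested members averaged below ADAM10 over the 6 dishes, down to ADAMTSL3 at 0.221 TPM in PD-L1 dishes and 0.238 TPM in Vector dishes.

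**Figure D2:**
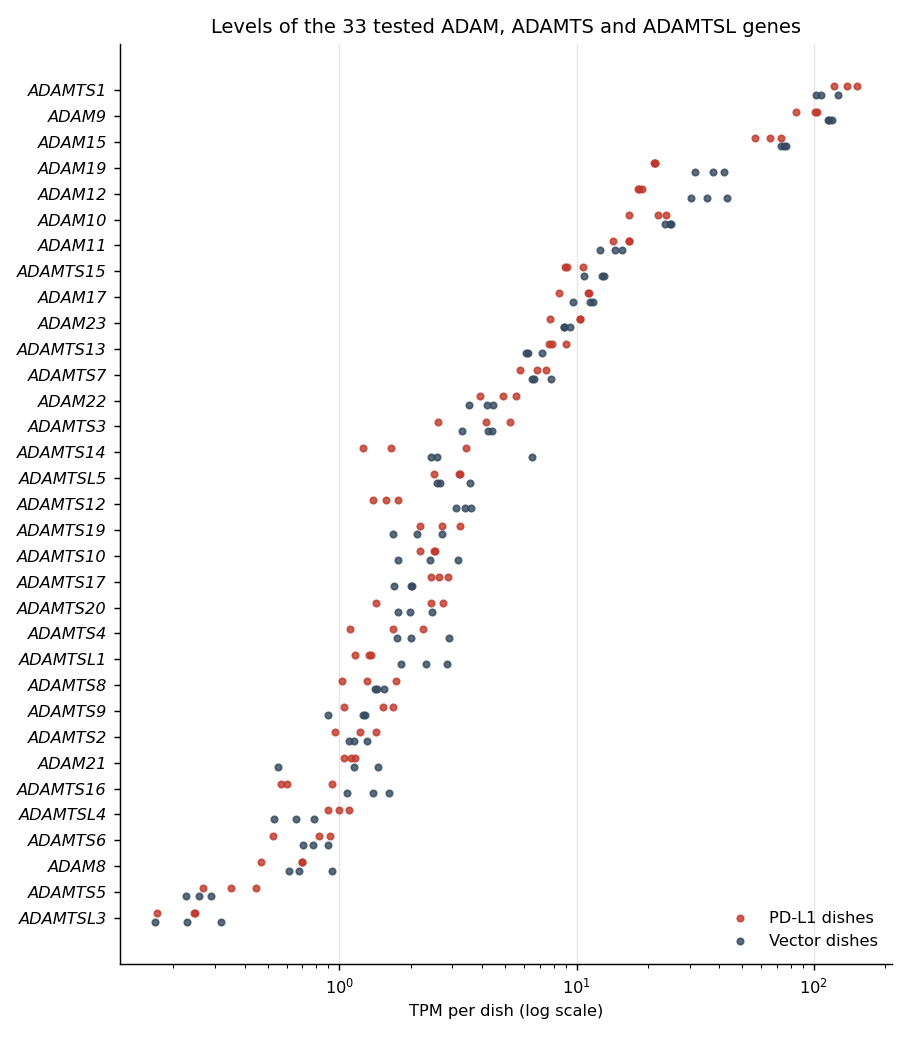
TPM per dish (x axis, log scale) of the 33 tested genes, ordered by mean, with PD-L1 dishes in red above Vector dishes in dark blue. ADAMTS1 and ADAM9 lie near 100, and the PD-L1 and Vector points of ADAM12, ADAM19 and ADAMTS12 are apart.

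Summed over all 20 genes, ADAM transcripts came to 263.1, 277.4 and 251.4 TPM in PD-L1 dishes 1 to 3, against 341.5, 310.9 and 334.8 TPM in Vector dishes 1 to 3. Every PD-L1 dish was below every Vector dish. ADAM9 held 36.4 ± 2.53% of this sum in PD-L1 dishes and 35.4 ± 1.59% in Vector dishes, and ADAM15 held 24.6 ± 3.82% in PD-L1 dishes and 22.7 ± 0.505% in Vector dishes. ADAM12 held 7.01 ± 0.256% of it in PD-L1 dishes and 11 ± 1.43% in Vector dishes. ADAMTS transcripts summed to 185.6, 205.8 and 169.7 TPM in PD-L1 dishes and 166.4, 150.8 and 179.9 TPM in Vector dishes, which overlap. ADAMTS1 alone held 73.3 ± 1.23% of that sum in PD-L1 dishes and 67.3 ± 3.05% in Vector dishes. ADAMTSL transcripts summed to 5.52 ± 0.57 TPM in PD-L1 dishes and 6.2 ± 0.42 TPM in Vector dishes, also overlapping. Within them ADAMTSL1 held 23.4 ± 0.553% in PD-L1 dishes and 37.8 ± 8.68% in Vector dishes.

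**Figure D3:**
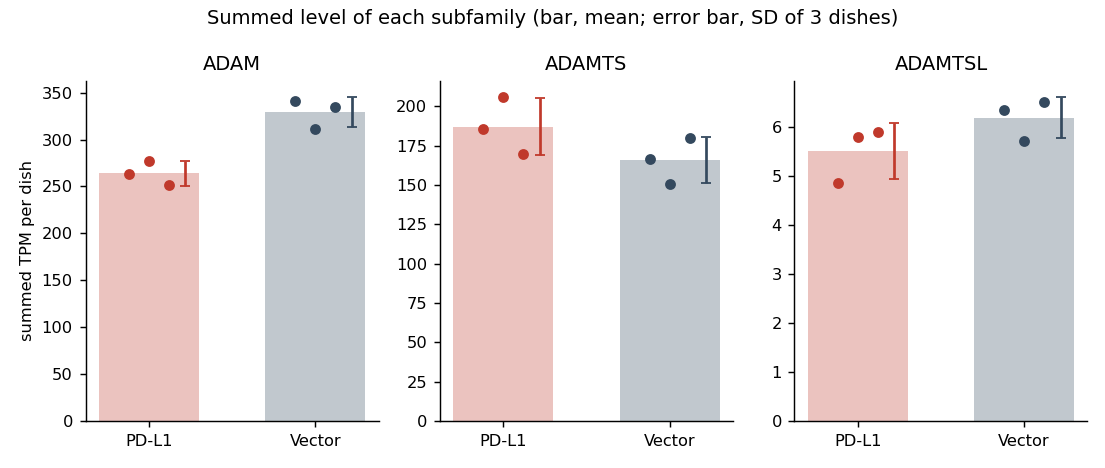
Summed TPM per dish of the ADAM, ADAMTS and ADAMTSL genes (y axes from 0), with a point for each dish, a bar for the mean and an error bar for the SD of 3 dishes. The ADAM sum is lower in all PD-L1 dishes (264 ± 13.0 TPM) than in Vector dishes (329 ± 16.1 TPM), and the other sums overlap.

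Of the 7 tested shedding ADAMs 4 were lower, with log2 fold changes from -1.03 to -0.16 over the 7 and a median of -0.32. Over all tested genes 7.2% were lower and the median was 0.02. ADAM12 and ADAM19, known as meltrins and able to release HB-EGF and neuregulin, had the larger changes. ADAM12 (ENSG00000148848, chromosome 10) had 47.1, 48.4 and 52.2 CPM in PD-L1 dishes 1 to 3, against 119, 85.7 and 96.3 CPM in Vector dishes 1 to 3. All PD-L1 dishes were near 50 CPM, and all Vector dishes were well above, with Vector dish 1 highest. The gene was 2.04-fold lower in PD-L1 dishes, with a log2 fold change of -1.03 ± 0.11 (SE) and an adjusted p of 0.0001 in edgeR's test. ADAM19 (ENSG00000135074, chromosome 5) had 43.4, 42.8 and 46.9 CPM in PD-L1 dishes, against 90.3, 69.8 and 79.8 CPM in Vector dishes. Again no dishes overlapped and Vector dish 1 was highest. ADAM19 was 1.8-fold lower (log2 fold change -0.85 ± 0.10, edgeR adjusted p = 0.000172). Of its exon length 0.8% overlaps CYFIP2 on the other strand, and reads there cannot be told apart because the kit does not mark strand.

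ADAM9 (ENSG00000168615, chromosome 8), an abundant sheddase, had 183, 185 and 168 CPM in PD-L1 dishes, against 225, 227 and 227.5 CPM in Vector dishes. Vector dishes were within a few CPM of each other, and PD-L1 dish 3 was the lowest dish. The fold was small, 1.27-fold lower (log2 fold change -0.34 ± 0.07, edgeR adjusted p = 0.00907). ADAM10 (ENSG00000137845, chromosome 15), which sheds Notch receptors, cadherins and CD44, had 93.5, 99.5 and 77.7 CPM in PD-L1 dishes, against 113, 109 and 112 CPM in Vector dishes. Its groups did not overlap either, and PD-L1 dish 3 lay farthest down. ADAM10 was 1.23-fold lower at an edgeR adjusted p of 0.0495, just under the threshold. That call was lost under 8 of 16 alternatives, among them leaving out PD-L1 dish 1 (adjusted p = 0.102) and leaving out Vector dish 1, 2 or 3 (adjusted p of 0.176, 0.10 and 0.119).

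ADAM15 (chromosome 1), an adhesion-linked sheddase with an integrin-binding motif, had 98.1, 111 and 138 CPM in PD-L1 dishes, against 142, 136 and 136 CPM in Vector dishes. PD-L1 dish 3 lay within the Vector range and the other PD-L1 dishes below it. With all dishes the log2 fold change was -0.26 ± 0.10 (edgeR adjusted p = 0.147), and on leaving out PD-L1 dish 3 it was -0.41 (adjusted p = 0.000219). It moved the other way on leaving out PD-L1 dish 1, to -0.15 (adjusted p = 0.516), and with the GC and length offset, to -0.09 (adjusted p = 0.421). Of the ADAM15 exon length 4.6% overlaps DCST1 on the same strand, a gene with 59 reads, so reads there are uncertain. ADAM17 (chromosome 2), which releases TNF and EGF receptor ligands, had 31.9, 31.1 and 26.0 CPM in PD-L1 dishes, against 34.7, 29.8 and 34.8 CPM in Vector dishes. These overlap, at a log2 fold change of -0.16 ± 0.10 (edgeR adjusted p = 0.373). Of its exon length 12.3% overlaps IAH1 on the other strand, so part of its count is uncertain. ADAM8, a sheddase best known from leukocytes, was low, at 0.795 ± 0.132 CPM in PD-L1 dishes and 0.998 ± 0.214 CPM in Vector dishes.

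Ratios of reads within a dish do not depend on scaling. ADAM12 gave 1.48, 1.56 and 2.01 reads per ADAM17 read in PD-L1 dishes and 3.44, 2.88 and 2.76 in Vector dishes. ADAM19 gave 1.36, 1.38 and 1.8 per ADAM17 read in PD-L1 dishes and 2.61, 2.34 and 2.29 in Vector dishes. In both ratios every PD-L1 dish was below every Vector dish, and PD-L1 dish 3 came closest to the Vector dishes. The exact two-sided permutation p was 0.1 for each, the smallest that 3 against 3 dishes allow. These pairs were chosen after their values were seen.

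**Figure D4:**
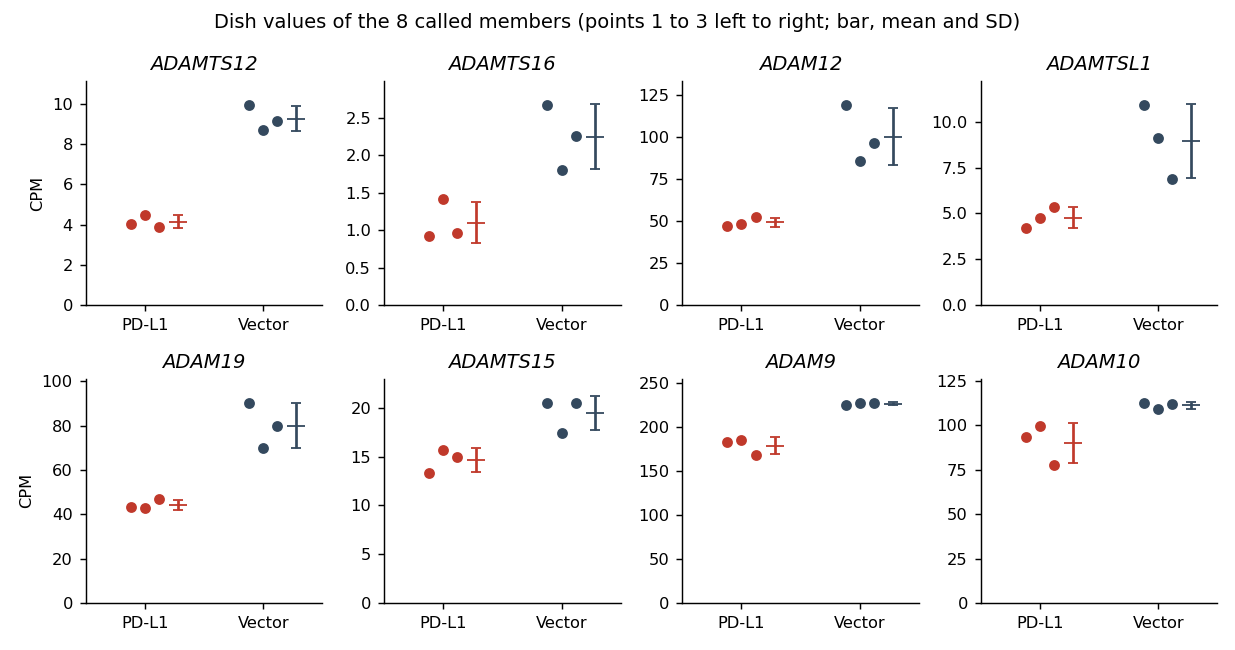
CPM per dish (y axes from 0) of the 8 members with an adjusted p under 0.05, with points for dishes 1 to 3 from left to right and a bar for mean and SD (n = 3 each), PD-L1 left and Vector right. In each panel all PD-L1 points lie below all Vector points, and the gap is widest relative to the level for ADAMTS12.

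ADAM11, ADAM22 and ADAM23 have no zinc site and are neuronal receptors, ADAM22 and ADAM23 being partners of the secreted LGI proteins at synapses. By edgeR 0 of the 3 differed, 0 also by DESeq2 and by limma-voom, and 0 at an unadjusted p under 0.05. Of all tested genes 8.75% differed by edgeR, so a count of 0 of 3 says little about these genes. ADAM11 had 17.9, 20.6 and 22.8 CPM in PD-L1 dishes and 19.6, 17.1 and 20.5 CPM in Vector dishes. ADAM22 had 17.8, 15.5 and 13.8 CPM in PD-L1 dishes and 12.1, 14.6 and 15.0 CPM in Vector dishes. ADAM23 had 17.5, 17.1 and 14.2 CPM in PD-L1 dishes and 17, 16.2 and 15.8 CPM in Vector dishes. The dishes of both groups overlapped for each of these genes. Their log2 fold changes were 0.10 ± 0.11, 0.18 ± 0.13 and -0.01 ± 0.11, in that order of genes. Among the ADAMs known from the reproductive tract, ADAM21 alone was tested, at 0.795 ± 0.0123 CPM in PD-L1 dishes and 0.790 ± 0.34 CPM in Vector dishes. Its paralog ADAM20 had 1 read in all.

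Of the 11 members that were not tested, ADAM30 had 0 reads in all 6 dishes. ADAM7, ADAM18, ADAM20, ADAM29 and ADAM33 had 1 to 6 reads in all dishes together, and ADAM2 had 11. ADAM28 had 27 reads and ADAM32 had 35. ADAMTS18 had 39 reads and ADAMTSL2, a regulator of TGF-beta in fibrillin microfibrils, had 5. All of these genes were too scarce for a test of a difference between groups. ADAMTS18 had 3 to 13 reads per dish, ADAM32 also 3 to 13 and ADAM28 2 to 7, so reads of these were present in every dish.

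Among the ADAMTS enzymes the largest change was in ADAMTS12, which with ADAMTS7 forms the clade that cuts cartilage oligomeric matrix protein (COMP). ADAMTS12 (ENSG00000151388, chromosome 5) had 4.05, 4.50 and 3.91 CPM in PD-L1 dishes, against 9.94, 8.70 and 9.15 CPM in Vector dishes. The dishes of each group were close together and the groups far apart. The gene was 2.24-fold lower (log2 fold change -1.16 ± 0.14, edgeR adjusted p = 0.00021). ADAMTS7 (chromosome 15) had 11.8, 15.0 and 15.2 CPM in PD-L1 dishes and 17.1, 14.6 and 13.9 CPM in Vector dishes. Those overlap, at a log2 fold change of -0.13 ± 0.13 (edgeR adjusted p = 0.582). Its pseudogene copies ADAMTS7P3 and ADAMTS7P4 had 26 and 9 reads, against 1695 for ADAMTS7. Within a dish there were 0.344, 0.300 and 0.258 ADAMTS12 reads per ADAMTS7 read in PD-L1 dishes and 0.582, 0.595 and 0.659 in Vector dishes. All PD-L1 dishes were lower, with an exact two-sided permutation p of 0.1, the smallest possible here, and the pair was chosen after its values were seen.

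Of the 7 tested ADAMTS enzymes of the proteoglycan-cutting clade 1 was lower, where 7.2% of all tested genes were. Their median log2 fold change was 0.01, and 0.02 over all tested genes. ADAMTS15 (ENSG00000166106, chromosome 11), able to cut versican, had 13.3, 15.7 and 14.9 CPM in PD-L1 dishes, against 20.5, 17.5 and 20.5 CPM in Vector dishes. It was lower in every PD-L1 dish, 1.33-fold (log2 fold change -0.41 ± 0.11, edgeR adjusted p = 0.0313). The call was lost on leaving out PD-L1 dish 1 (adjusted p = 0.159), dish 2 of that group (0.0536), Vector dish 1 (0.151) or dish 3 of the Vector group (0.105), and the GC and length offset gave -0.24 (adjusted p = 0.0754). ADAMTS1 (ENSG00000154734, chromosome 21), the most abundant member and also a versican-cutting enzyme, had 255, 279 and 248 CPM in PD-L1 dishes, against 212, 206 and 246 CPM in Vector dishes. Every PD-L1 dish was above every Vector dish, but PD-L1 dish 3 and Vector dish 3 nearly met. The log2 fold change was 0.23 ± 0.08, and the edgeR adjusted p was 0.105. Without PD-L1 dish 3 it was 0.27 (adjusted p = 0.0143), and with the GC and length offset 0.29 (adjusted p = 0.00691). ADAMTS15 reads per ADAMTS1 read were 0.0523, 0.0563 and 0.0602 in PD-L1 dishes and 0.0967, 0.0846 and 0.083 in Vector dishes, all PD-L1 dishes lower (exact two-sided permutation p = 0.1, the smallest possible, pair chosen after values were seen).

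ADAMTS4 (chromosome 1), an aggrecanase that also cuts brevican, had 3.03, 4.50 and 6.69 CPM in PD-L1 dishes, against 8.42, 5.18 and 5.76 CPM in Vector dishes. PD-L1 dish 3 lay among the Vector dishes and the other PD-L1 dishes below them. With all dishes the log2 fold change was -0.46 ± 0.26 (edgeR adjusted p = 0.310), and on leaving out PD-L1 dish 3 it was -0.81 (adjusted p = 0.0186). It was -0.20 (adjusted p = 0.733) on leaving out PD-L1 dish 1 and -0.21 (adjusted p = 0.765) on leaving out Vector dish 1. ADAMTS5, the other main aggrecanase, was scarce, at 0.864 ± 0.21 CPM in PD-L1 dishes and 0.656 ± 0.0754 CPM in Vector dishes. The other members of the clade, ADAMTS8, ADAMTS9 and ADAMTS20, overlapped between groups, with log2 fold changes of -0.20, 0.24 and 0.01.

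The procollagen N-proteinases ADAMTS2, ADAMTS3 and ADAMTS14 trim the amino-terminal propeptide from fibrillar procollagens. By edgeR 0 of these 3 differed, 0 also by DESeq2 and limma-voom, and 0 at an unadjusted p under 0.05. With 8.75% of all tested genes differing by edgeR, 0 of 3 says little about these enzymes. ADAMTS3 had 9.91, 7.70 and 5.41 CPM in PD-L1 dishes and 6.67, 8.70 and 8.78 CPM in Vector dishes. ADAMTS14 had 2.29, 1.73 and 5.19 CPM in PD-L1 dishes and 9.62, 3.67 and 3.77 CPM in Vector dishes. Both genes varied widely within groups, PD-L1 dish 3 and Vector dish 1 being the high dishes of ADAMTS14. Its log2 fold change of -0.89 ± 0.51 (edgeR adjusted p = 0.342) did not pass. It was -0.265 on leaving out Vector dish 1 and -1.498 on leaving out PD-L1 dish 3. ADAMTS2 had 2.85 ± 0.699 CPM in PD-L1 dishes and 2.92 ± 0.233 CPM in Vector dishes.

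ADAMTS16 (ENSG00000145536, chromosome 5), an enzyme known to cut fibronectin, was scarce, with 19, 23 and 18 reads in PD-L1 dishes and 58, 37 and 42 reads in Vector dishes. That is 0.927, 1.42 and 0.964 CPM in PD-L1 dishes, against 2.67, 1.81 and 2.26 CPM in Vector dishes. All PD-L1 dishes were lower, and the gene was 2.06-fold lower (log2 fold change -1.04 ± 0.26, edgeR adjusted p = 0.0233). The call was lost on leaving out PD-L1 dish 1 (adjusted p = 0.110), and on leaving out Vector dish 1 (0.131) or dish 3 of the Vector group (0.0530). ADAMTS17 (chromosome 15), mutated in a Weill-Marchesani-like syndrome, had 5.27, 6.16 and 6.26 CPM in PD-L1 dishes, against 3.96, 4.79 and 4.58 CPM in Vector dishes. All PD-L1 dishes were above the Vector dishes, by 1.33-fold, at an edgeR adjusted p of 0.119. ADAMTS13 (chromosome 9), the protease of von Willebrand factor, had 11.8, 13.4 and 12.6 CPM in PD-L1 dishes, against 10.0, 9.97 and 11.3 CPM in Vector dishes. It too was higher in every PD-L1 dish (log2 fold change 0.27 ± 0.11, edgeR adjusted p = 0.167). With the GC and length offset both passed, ADAMTS17 at 0.56 (adjusted p = 0.0241) and ADAMTS13 at 0.46 (adjusted p = 0.0107). The fibrillin-linked pair ADAMTS6 and ADAMTS10 had log2 fold changes of -0.10 and -0.09, and ADAMTS19 had 0.25, none of them past the threshold.

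ADAMTSL1 (ENSG00000178031, chromosome 9), also called punctin, had 4.20, 4.75 and 5.35 CPM in PD-L1 dishes, against 10.9, 9.09 and 6.89 CPM in Vector dishes. Every PD-L1 dish was lower, PD-L1 dish 3 and Vector dish 3 being closest. The gene was 1.89-fold lower (log2 fold change -0.92 ± 0.18, edgeR adjusted p = 0.00543). ADAMTSL4 (chromosome 1), a fibrillin-binding protein of the eye's zonule, had 1.51, 1.66 and 2.04 CPM in PD-L1 dishes, against 1.20, 0.978 and 1.40 CPM in Vector dishes. It was higher in every PD-L1 dish and did not pass (log2 fold change 0.55 ± 0.25, edgeR adjusted p = 0.208). An antisense gene covers 11.4% of its exon length and had 3 reads. ADAMTSL3 and ADAMTSL5 overlapped between groups, with log2 fold changes of -0.16 and -0.03.

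ADAM12, ADAM19 and ADAMTS12 were the lower members of highest significance. Their promoters are printed as the 250 bases before the start, on the gene's strand, from RefSeq on GRCh38.p14, a later build than the hg19 of the counts. Capitals mark matches, on either strand, to a GC box (GGGCGG), an AP-1 motif (TGANTCA) or a TEAD motif (GGAATG). ADAM12 is at chr10:126388478-126388727, ADAM19 at chr5:157575776-157576025 and ADAMTS12 at chr5:33891991-33892240, all on the minus strand.
ADAM12: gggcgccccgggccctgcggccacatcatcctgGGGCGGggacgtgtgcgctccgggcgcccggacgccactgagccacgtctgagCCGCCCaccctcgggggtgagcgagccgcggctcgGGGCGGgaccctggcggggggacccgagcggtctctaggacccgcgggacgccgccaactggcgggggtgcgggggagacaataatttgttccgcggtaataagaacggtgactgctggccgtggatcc
ADAM19: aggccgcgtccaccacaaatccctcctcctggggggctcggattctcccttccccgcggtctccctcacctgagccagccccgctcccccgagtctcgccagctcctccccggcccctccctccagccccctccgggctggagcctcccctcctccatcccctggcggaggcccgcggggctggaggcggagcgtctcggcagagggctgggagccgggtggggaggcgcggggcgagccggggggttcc
ADAMTS12: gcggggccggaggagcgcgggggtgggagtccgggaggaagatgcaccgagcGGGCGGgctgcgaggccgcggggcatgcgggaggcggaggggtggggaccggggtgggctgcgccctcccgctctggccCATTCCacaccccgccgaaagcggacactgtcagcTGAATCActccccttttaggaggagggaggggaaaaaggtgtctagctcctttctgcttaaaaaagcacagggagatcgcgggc
ADAMTS12 holds a match to each motif, ADAM12 only GC boxes and ADAM19 none. Of the 29 members whose promoters were searched, 22 hold a GC box, 1 an AP-1 match and 4 a TEAD match (ADAM17, ADAMTS6, ADAMTS12 and ADAMTS20). The lower members ADAM9, ADAMTS15 and ADAMTS16 were not among those searched. Over all 35116 promoters of the same length the shares are 42.6%, 6.57% and 11.9%. A match describes these letters and says nothing of binding.

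Genes that act on the proteases were counted from lists. Of 20 regulators of ADAM shedding 6 were lower, with a median log2 fold change of -0.28 over the list and 0.02 over all tested genes, of which 7.2% were lower. TIMP3, the inhibitor of ADAM17 and of aggrecanases, averaged 57.7 ± 6.56 CPM in PD-L1 dishes and 83.9 ± 13.7 CPM in Vector dishes (SD, n = 3 each; edgeR adjusted p = 0.0113). FURIN, which removes the inhibitory propeptide of ADAM and ADAMTS enzymes, averaged 194 ± 15.9 CPM in PD-L1 dishes and 258 ± 24.5 CPM in Vector dishes (edgeR adjusted p = 0.0110). TIMP2, a metalloprotease inhibitor, was 1.64-fold lower and SFRP1, an ADAM10 inhibitor, 1.94-fold lower. TSPAN5 and TSPAN14, tetraspanins that escort ADAM10, were 1.31-fold and 1.22-fold lower. The lower regulators thus included both inhibitors and activators. Leaving out PD-L1 dish 1, 2 or 3 gave 2, 3 or 10 lower regulators, and leaving out Vector dish 1 gave 2. Of 11 genes that modify thrombospondin repeats or regulate ADAMTS enzymes 3 were lower, FURIN, TIMP3 and CTSB, a lysosomal protease (390 ± 85.0 CPM in PD-L1 dishes, 593 ± 111 CPM in Vector dishes). Leaving out PD-L1 dish 1 or 2 gave 1 lower gene, and leaving out PD-L1 dish 3 gave 4 lower and 2 higher. Leaving out Vector dish 1 or 2 gave 0 or 5.

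Of 40 tested substrates of ADAM10 and ADAM17, 16 were lower and 2 higher, with a median log2 fold change of -0.32, where 7.2% of all tested genes were lower and 1.55% higher. The higher ones were CD274 itself, which the construct carries, and NECTIN4, an adhesion molecule named after its values were seen, at 14.9 ± 0.94 CPM in PD-L1 dishes and 10.1 ± 1.55 CPM in Vector dishes (edgeR adjusted p = 0.0128). CD44, the hyaluronan receptor, averaged 208 ± 23.0 CPM in PD-L1 dishes and 417 ± 39.9 CPM in Vector dishes (edgeR adjusted p = 4.91e-05). The receptor kinases AXL and EPHA2 were 2.09-fold and 1.52-fold lower, and the adhesion molecules ALCAM and SDC4 1.46-fold and 1.66-fold lower. Leaving out PD-L1 dish 1, 2 or 3 gave 13, 12 or 21 lower substrates, and leaving out Vector dish 1, 2 or 3 gave 11, 16 or 12. Of 8 tested integrin genes, whose products bind ADAM disintegrin domains, 5 were lower (median -0.47), beside the same 7.2% of all tested genes. ITGA6 averaged 57.6 ± 4.96 CPM in PD-L1 dishes and 102 ± 1.07 CPM in Vector dishes (edgeR adjusted p = 5.23e-05), and ITGB1 averaged 255 ± 0.851 CPM in PD-L1 dishes and 343 ± 9.60 CPM in Vector dishes. ITGA5, ITGB3 and ITGB5 were 1.86-fold, 2.29-fold and 1.43-fold lower.

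Matrix substrates of the ADAMTS enzymes were counted in the same way, and 7.2% of all tested genes were lower, with a median of 0.02. Of 5 tested procollagen genes 4 were lower, with a median log2 fold change of -1.29. The N-proteinases that trim them did not pass, among them ADAMTS14 at a log2 fold change of -0.89 ± 0.51 (SE). COL1A1 averaged 340 ± 36.4 CPM in PD-L1 dishes and 837 ± 171 CPM in Vector dishes (edgeR adjusted p = 0.000125), and COL1A2, COL5A1 and COL5A2 were 2.20-fold, 2.44-fold and 1.99-fold lower. Of 7 tested genes in the list of proteoglycan substrates, which also holds the matrix protein COMP, 4 were lower. These were SDC4, DCN, VCAN and BGN, and the median over the list was -0.59. By DESeq2 3 genes of this list were lower. DCN was scarce, at 0.111 ± 0.0569 CPM in PD-L1 dishes and 1.09 ± 0.508 CPM in Vector dishes. VCAN, the versican that ADAMTS1 and ADAMTS15 cut, averaged 53.7 ± 5.56 CPM in PD-L1 dishes and 80.9 ± 9.58 CPM in Vector dishes (edgeR adjusted p = 0.00279). Of 12 tested microfibril partners of ADAMTS and ADAMTSL proteins 7 were lower (median -0.49). FBN1, the fibrillin of microfibrils, averaged 43.1 ± 4.15 CPM in PD-L1 dishes and 112 ± 17.3 CPM in Vector dishes (edgeR adjusted p = 1.85e-05), and EFEMP1 and LTBP1 were 1.76-fold and 1.83-fold lower. Leaving out PD-L1 dish 1 gave 3 lower microfibril genes, and leaving out PD-L1 dish 2, or Vector dish 1 or 3, gave 4. Leaving out PD-L1 dish 3 gave 5 lower and 1 higher. Of 4 tested synaptic partners of ADAMs 1 was lower, STX1A, a membrane fusion protein, at 8.83 ± 1.34 CPM in PD-L1 dishes and 13.1 ± 2.04 CPM in Vector dishes (edgeR adjusted p = 0.0269). That count was 0 on leaving out dish 1 or dish 2 of either group, and 3 on leaving out PD-L1 dish 3. The lists share SDC4, TIMP3 and FURIN, among others.

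**Figure D5:**
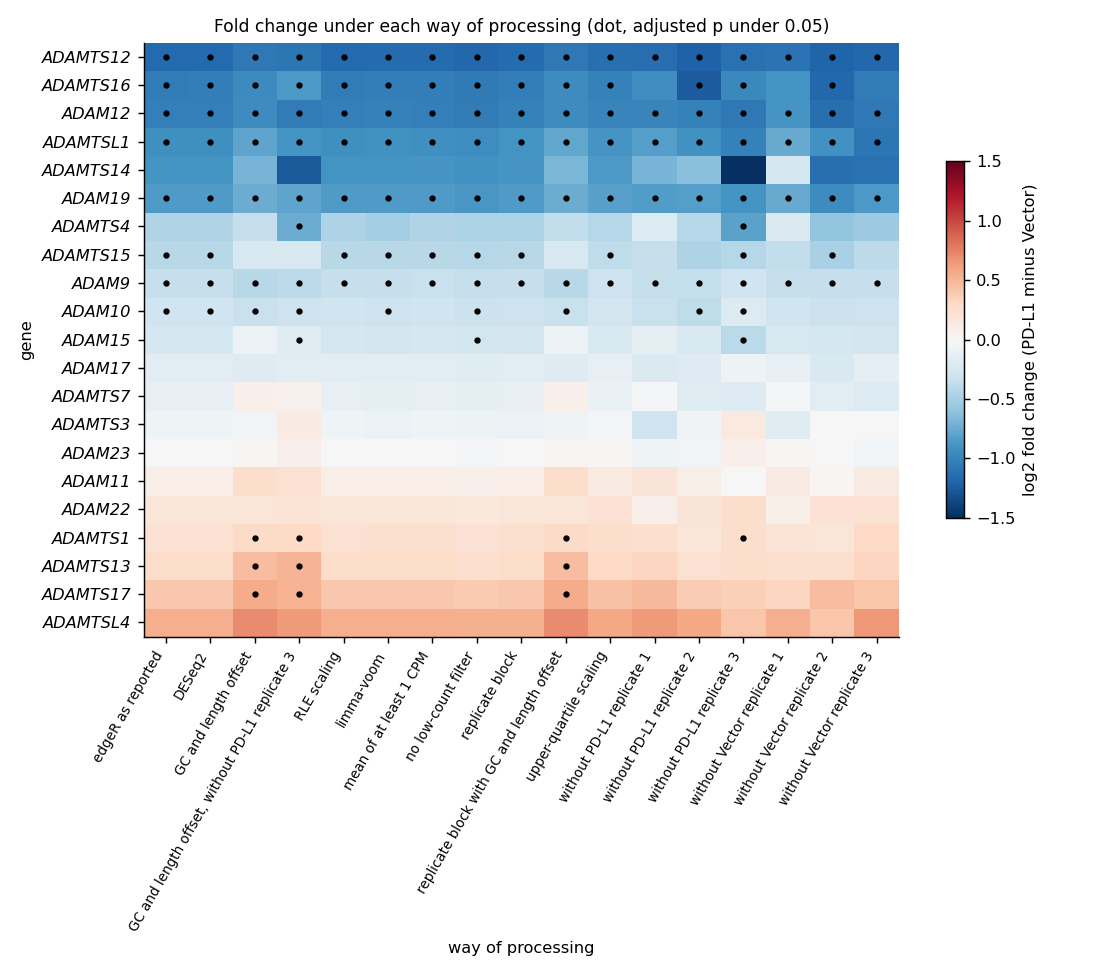
Log2 fold change (PD-L1 minus Vector, colour) of the 21 members given dish by dish (rows) under each way of processing (columns), with a dot where the adjusted p was under 0.05. ADAM9, ADAM12, ADAM19, ADAMTS12 and ADAMTSL1 carry a dot in every column, while ADAM10, ADAMTS15 and ADAMTS16 lose it in some.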

How the data were processed

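Poly-A RNA of 6 dishes was sequenced from 3 µg of total RNA each with a kit that does not mark strand, per the labels' protocols. The submitters' processing notes name HTSeq 0.6.0, STAR 2.5.1b, CASAVA 1.8 and the build hg19. Which annotation, strand setting and read filter HTSeq had is not given in the sources used here. A table of raw read counts per Ensembl gene was deposited, with 1 column per dish. A further deposited table holds values on a signal scale for 28633 genes, which were found to be the counts divided by 1 factor per dish and were not tested.

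Groups come from the sample titles. Counts were filtered by filterByExpr, TMM-scaled and tested with edgeR 4.0.16 (robust quasi-likelihood) in R 4.3.3 over all 15818 genes kept, with Benjamini-Hochberg adjustment and a threshold of 0.05. CPM values are TMM-scaled. TPM used exon lengths of GENCODE 29, which served, with a table of gene names, for symbols, chromosomes, GC content and overlaps; genes with a length held 99.3% of reads. The common biological coefficient of variation was 8.6%. Dish values are given for members that passed, that averaged at least 5 CPM or that had an absolute log2 fold change of at least 0.5. Of each gene list up to 6 members with the smallest adjusted p could be named. The members, lists and tests were chosen with earlier results of these data known. Alternatives were relative log expression and upper-quartile scaling, DESeq2 1.42.0, limma-voom (limma 3.58.1), a filter at a mean of 1 CPM or no filter, a block for the replicate number, an offset for GC content and length (splines with 5 degrees of freedom per dish), leaving out each dish, and a threshold of 0.01. The fits were tested on simulated counts. Plots used Python 3.11.15 and matplotlib 3.10.9. Depths are given with the results.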

Additional observations from a re-analysis of the deposited data

How the results depend on the processing

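ADAM9, ADAM12, ADAM19, ADAMTS12 and ADAMTSL1 were lower at an adjusted p under 0.05 in all 16 refits, and the 8 lower members kept their sign in each. Leaving out each dish in turn gave 545 to 3512 changed genes over all genes tested, 3 to 5 ADAM, 1 to 5 ADAMTS and 1 ADAMTSL gene, 5 to 11 members and 29 to 58 of the pathway genes (45 with all dishes). The GC and length offset gave 2218 changed genes, 1337 lower and 881 higher, against 1139 and 245 without it, and 3523 without PD-L1 dish 3 as well. With that offset 5 ADAMTS genes passed, also 5 with the block, and 6 without PD-L1 dish 3. At a threshold of 0.01 there were 530 changed genes, 1 ADAMTS gene, 5 members and 25 pathway genes. All alternatives were listed with earlier results of these data known.

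Members past no threshold changed sign in some refits. ADAM23 had a log2 fold change of 0.0279 with upper-quartile scaling, 0.0316 with the offset, 0.0310 with the block and offset and 0.0780 with the offset when PD-L1 dish 3 was left out, and -0.0612 to 0.0814 on leaving out each dish. ADAMTS3 ranged from -0.3004 to 0.1409 on leaving out each dish, and was at 0.119 with the offset when PD-L1 dish 3 was left out. ADAMTS7 was at 0.0762 with the offset, 0.0779 with the block and offset and 0.0591 with the offset when PD-L1 dish 3 was left out. The cause was not tested.

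The replicate number as a block gave 1447 changed genes and 7 members, the call of ADAM10 being lost (adjusted p = 0.0593). Deviations of same-numbered dishes from their group means correlated at -0.21 to -0.05, and those of unlike-numbered dishes at -0.08 to 0.23. These values show no pairing by number, but so few dishes cannot exclude it.

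Depth limits the 11 members that were not tested and scarce ones such as ADAMTS16. Each group is 1 line, so the spread between dishes does not cover the spread between lines.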
